A study of Mus musculus with 10 samples.

Results

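Bipolar cells are the retinal interneurons that carry signals from photoreceptors to amacrine cells and RGCs, and 9 genes that mark them or build their light response were described here. These were *Grm6*, *Gng13*, *Pcp2*, *Trpm1*, *Nyx*, *Prkca*, *Cabp5*, *Vsx1* and *Lhx4*, taken by symbol from the 53974 genes of the RNA-seq table, together with the 3 of 16600 ATAC-seq regions that lay within 1000 bp of an end of these genes. All 9 genes passed the filter on low values, as did 17555 genes in all. Every library came from cells sorted with a Thy1.2 antibody from retinas of adult C57BL/6 mice (8 to 10 weeks) after optic nerve crush (ONC). The mice carried floxed *Arid1a* (Arid1a fl/fl), the gene of a subunit of a chromatin remodeling complex. WT mice had received AAV2-GFP and *Arid1a* cKO mice (Arid1a del/del in the labels) AAV2-Cre into the vitreous 2 weeks before ONC, with tissue collected 3 days after the crush. The virus carried the CMV promoter, which is active in many cell types, so Cre was not limited to RGCs by its promoter, and several retinas were pooled per sample. RNA-seq had 3 libraries a group and ATAC-seq had 2.

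In the dark, glutamate from photoreceptors holds the receptor mGluR6, encoded by *Grm6*, active on the dendrites of ON bipolar cells, and through the G protein Go it keeps the cation channel TRPM1 shut. Light lowers the glutamate, TRPM1 opens and the cell depolarizes. OFF bipolar cells answer the same glutamate with ionotropic receptors and depolarize in the dark, and rod bipolar cells are the ON type driven by rods.

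The libraries had features that touch every result below. *Arid1a* RNA was not lower in the libraries labelled cKO, with 18.8, 11.7 and 14.1 TPM (a per-length transcript abundance that sums to the same total in each library) in WT replicates 1 to 3 and 18.8, 27.9 and 25 TPM in cKO replicates 1 to 3, so all directions are given by label. The study reported, by staining of retinal sections, that ARID1A protein fell in Tuj1-positive cells after AAV2-Cre. The TPM values are RNA per whole gene in sorted cells, a different measure, and loss of the floxed part was not tested here. Among 12 RGC markers, *Thy1*, the sorted antigen, held 51.9 to 129 TPM of a summed level of 85 to 172 TPM and *Nefl*, a neurofilament gene, 5.47 to 20.6 TPM, whereas *Rbpms* lay between 1.82 and 6.43 TPM, *Slc17a6* between 0.593 and 1.57 TPM, and *Pou4f2* was listed at 0 in 5 libraries. *Stmn2*, a neuronal tubulin-binding protein gene, had the largest difference of that list, 0.97 on the log2 scale. *Slc17a6* and *Pou4f2*, used to define RGCs, were thus at or near 0 in cells labelled as RGCs. *Rbpms*, used likewise, was low but passed the filter on low values. In TPM, *Nefm* held 2.31 to 8.27, *Nefh* 1.56 to 5.78, *Sncg* 0.827 to 4.55 and *Stmn2* 1.44 to 8.51. *Pou4f1* held 0.0838 to 3.6 TPM, *Isl2* 0.255 to 1.39 TPM and *Pou4f3* at most 0.0532 TPM. Markers of rods, Müller glia and T cells were also present, as given below, so the bipolar genes were read in a mixed sort.

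The 250 bases before the RefSeq start are shown for 4 members (GRCm38.p6, 5′ to 3′ on the strand of the gene), because *Cabp5*, *Pcp2* and *Trpm1* had the highest levels and *Prkca* was the member whose start lay inside an ATAC-seq region. Capitals mark TAATCC or its complement GGATTA (the core site of CRX and OTX2), CAGATG or CATCTG (an E-box), and GGGCGG or CCGCCC (a GC box). The windows are *Cabp5* at chr7:13397905-13398154 on the plus strand, *Trpm1* at chr7:64153585-64153834 on the plus strand, *Pcp2* at chr8:3625548-3625797 on the minus strand and *Prkca* at chr11:108343889-108344138 on the minus strand.
Cabp5: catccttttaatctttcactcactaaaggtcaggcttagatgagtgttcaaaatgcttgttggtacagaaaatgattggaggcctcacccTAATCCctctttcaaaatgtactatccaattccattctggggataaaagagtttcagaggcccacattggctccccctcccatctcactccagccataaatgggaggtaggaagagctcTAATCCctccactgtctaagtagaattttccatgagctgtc
Trpm1: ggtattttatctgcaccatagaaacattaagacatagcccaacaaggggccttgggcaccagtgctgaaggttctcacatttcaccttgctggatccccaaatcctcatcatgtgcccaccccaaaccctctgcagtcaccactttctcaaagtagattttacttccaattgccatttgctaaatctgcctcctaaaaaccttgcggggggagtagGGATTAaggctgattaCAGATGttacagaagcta
Pcp2: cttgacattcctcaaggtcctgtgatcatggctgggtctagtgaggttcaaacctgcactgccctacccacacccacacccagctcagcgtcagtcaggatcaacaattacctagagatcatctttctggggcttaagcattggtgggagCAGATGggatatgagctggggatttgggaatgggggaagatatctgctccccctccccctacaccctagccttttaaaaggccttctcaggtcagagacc
Prkca: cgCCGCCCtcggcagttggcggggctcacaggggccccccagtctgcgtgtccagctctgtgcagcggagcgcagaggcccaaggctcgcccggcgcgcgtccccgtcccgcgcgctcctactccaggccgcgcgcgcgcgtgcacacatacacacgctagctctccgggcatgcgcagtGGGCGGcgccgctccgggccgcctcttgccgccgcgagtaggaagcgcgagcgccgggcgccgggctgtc

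RefSeq gave 14 windows of 300 bases (250 before and 50 after a start) for the 9 members, and both strands were searched in each. TAATCC was found in *Trpm1*, where it began 34 bases before the start, and in *Cabp5*, 160 and 41 bases before the start, which is 2 of the 14 windows beside 7.06% of all 32851 windows. CAGATG was found in 3 windows, of *Trpm1* and *Pcp2*, beside 17.2% of all windows, and GGGCGG in 4, of *Prkca*, *Lhx4* and *Gng13*, beside 35.7%. The windows of 1 gene can overlap. The homeodomain core TAATTA, which reads the same on both strands, was found in 1 window, another of *Pcp2*, beside 5.29% of all windows. GC content ran from 44.7% with no CpG in *Cabp5* to 75.3% with 42 CpG in *Prkca*, and the median over all windows was 52.7%. *Vsx1*, *Grm6* and *Nyx* held none of the 4 motifs.

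Over the 9 genes, the libraries labelled cKO had higher mean TPM for every member, but no member passed the adjusted test. The log2 difference (cKO minus WT, of TPM + 1, by limma) was above 0 for 9 of 9, where 61.1% of all genes tested were above 0, and its median was 0.53 beside 0.16 over all genes. Median-of-ratios scaling between libraries brought these medians to 0.37 and 0.01, and then *Vsx1* (-0.05) and *Grm6* (-0.08) lay below 0, leaving 7 of 9 above 0 beside 50.8% of all genes. At an adjusted p under 0.05, 0 members were called in either direction, where 0.00570% of all genes were called higher and 0% lower. The study's own test (DESeq2) called far more genes at that adjusted threshold, most of them lower in cKO, so the few calls here belong to this test on TPM. At an unadjusted p under 0.05, *Lhx4* alone was higher, 1 of 9 beside 11.9% of all genes, and none was lower, beside 6.45%. In these bulk libraries more cells of a type and more RNA per cell cannot be told apart.

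**Figure D1:**
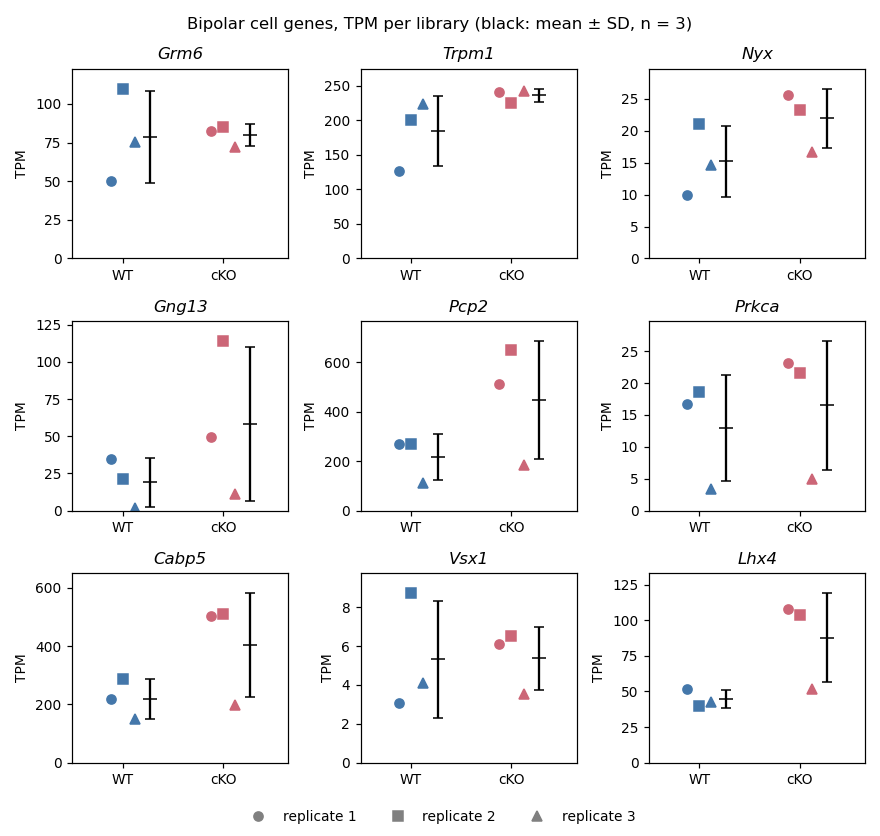
TPM of each of the 9 genes (y axis, from 0) by label (x axis), with circles, squares and triangles for replicates 1, 2 and 3 and black bars for the mean ± SD of 3 libraries. Only for *Trpm1* did all cKO points lie above all WT points, and replicate 3 is low in both labels for *Gng13*, *Pcp2*, *Prkca* and *Cabp5*.

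*Grm6* encodes the receptor itself. It was measured at 50.3, 109.7 and 75.6 TPM in WT replicates 1 to 3 and at 82.4, 85.1 and 72.1 TPM in cKO replicates 1 to 3. The groups overlapped fully, since the highest and the lowest value were both WT. The means were 78.5 ± 29.8 and 79.9 ± 6.81 TPM (SD, n = 3 each), and the log2 difference was 0.09 (standard error 0.30, adjusted p = 0.899 by limma).

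*Gng13* encodes the gamma subunit of the G protein in ON bipolar cells. Its levels were 34.4, 21.2 and 1.67 TPM in WT and 49.8, 114 and 11.1 TPM in cKO. Replicate 3 was the lowest in either label, and the ranges overlapped although each cKO replicate exceeded the WT replicate of the same number. The log2 difference was 1.69 with a standard error of 1.14 (adjusted p = 0.466 by limma), the largest of the 9 with all libraries. It was 0.56 without WT replicate 3, when *Lhx4* at 0.86 was the largest, 0.95 without cKO replicate 2, and 2.58 without cKO replicate 3. In a limma fit blocked on replicate number, a pairing that no label states, p was 0.00741 (adjusted p = 0.111).

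*Pcp2* encodes a Go modulator found in rod bipolar cells and in cerebellar Purkinje cells. It held 269.8, 271 and 111 TPM in WT and 511, 647 and 184 TPM in cKO. The values of cKO replicates 1 and 2 stood above all WT values, but that of cKO replicate 3 lay below WT replicates 1 and 2. The means were 217 ± 92 and 447 ± 238 TPM (SD, n = 3 each), the log2 difference was 0.96 (standard error 0.55, adjusted p = 0.393 by limma), and with the block p was 0.00494 (adjusted p = 0.0979). The difference was 0.54 without WT replicate 3, 0.61 without cKO replicate 2 and 1.51 without cKO replicate 3.

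*Trpm1* encodes the channel at the end of the cascade and is also expressed by melanocytes. It held 127, 200.4 and 224 TPM in WT and 241, 225 and 242 TPM in cKO. It was the only member whose groups did not overlap, 1 of 9 beside 18.7% of all genes with cKO above (7.18% with cKO below), although cKO replicate 2 exceeded WT replicate 3 by little. The log2 difference was 0.40 (standard error 0.26, adjusted p = 0.444 by limma), and the exact two-sided permutation p was 0.1, the smallest that 3 against 3 allow. Without WT replicate 1, the lowest library, the difference was 0.16. The 7 markers of pigment epithelium and melanocytes summed to 0.796 to 3.96 TPM over the 6 libraries, and none passed the filter on low values.

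*Nyx* encodes nyctalopin, a leucine-rich protein needed to place TRPM1 at the dendrite tip. It was measured at 9.98, 21.1 and 14.6 TPM in WT and at 25.5, 23.3 and 16.7 TPM in cKO. Replicates 1 and 2 of cKO lay above the WT range and replicate 3 within it. The log2 difference was 0.53 (standard error 0.33, adjusted p = 0.431 by limma), and it was 0.28 without WT replicate 1.

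*Prkca* encodes protein kinase C alpha, the common marker of rod bipolar cells. It held 16.7, 18.6 and 3.39 TPM in WT and 23.1, 21.6 and 4.91 TPM in cKO. The spread between replicates of a label was far wider than the distance between labels, with replicate 3 low in each. The log2 difference was 0.36 (standard error 0.76, adjusted p = 0.83 by limma), and it turned to -0.34 without WT replicate 3 and was 1.02 without cKO replicate 3.

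*Cabp5* encodes a calcium-binding protein of rod bipolar cells and some cone bipolar types. Its levels were 218, 289 and 151 TPM in WT and 502, 511 and 197 TPM in cKO. As for *Pcp2*, cKO replicates 1 and 2 were above the WT range and cKO replicate 3 was not. The means were 219 ± 68.6 and 403 ± 179 TPM (SD, n = 3 each), the log2 difference was 0.80 (standard error 0.43, adjusted p = 0.367 by limma), and with the block p was 0.0179 (adjusted p = 0.152). Without cKO replicate 3 the difference was 1.25.

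The remaining members are homeodomain transcription factors. *Vsx1*, which acts in cone bipolar cells, held 3.09, 8.72 and 4.11 TPM in WT and 6.09, 6.52 and 3.51 TPM in cKO. Its mean was the lowest of the 9, and the cKO values lay inside the WT range. The log2 difference was 0.08 (standard error 0.41, adjusted p = 0.936 by limma).

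*Lhx4*, a factor of cone bipolar cells that cones express as well, held 51.8, 40.1 and 42.6 TPM in WT and 108, 104 and 51.8 TPM in cKO. Replicates 1 and 2 of cKO were above all WT values, and cKO replicate 3 was level with WT replicate 1. The means were 44.9 ± 6.17 and 87.8 ± 31.2 TPM (SD, n = 3 each), and the log2 difference was 0.89 (standard error 0.32, adjusted p = 0.217 by limma). Its exact two-sided permutation p was 0.2, and those of the 9 members ran from 0.1 for *Trpm1* to 0.9 for *Vsx1*. With the block p was 0.0194 (adjusted p = 0.156).

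**Figure D2:**
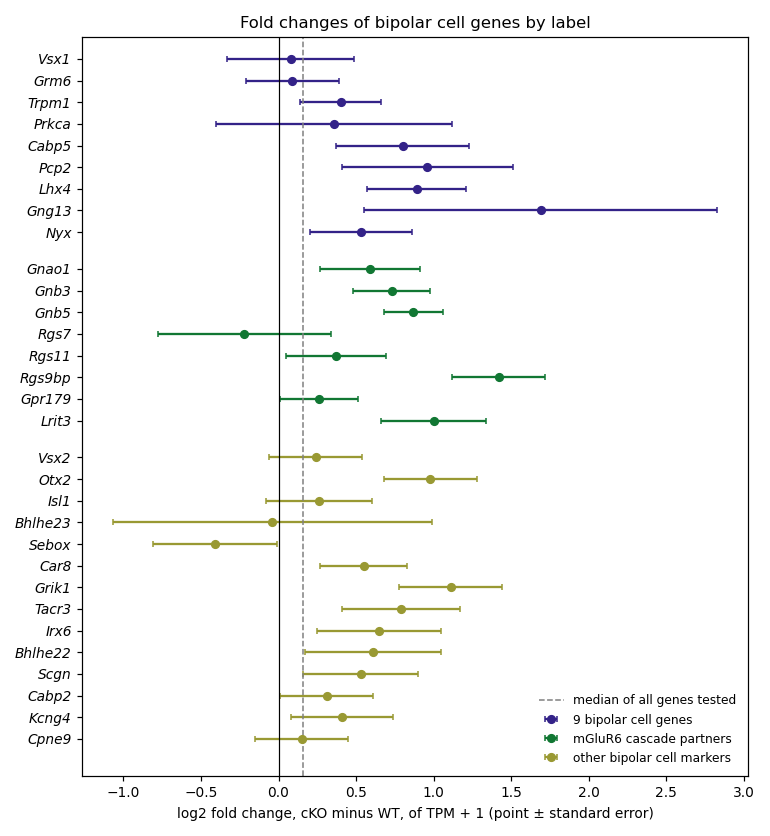
Log2 difference of TPM + 1 between labels (x axis, cKO minus WT, point ± standard error from limma) for the 9 genes, the cascade partners and the other bipolar cell markers (y axis), with a dashed line at the median of all genes tested, 0.16. All 9 members lie above 0, *Gng13* farthest at 1.69 with the longest error bar (0.56 without WT replicate 3, below *Lhx4* at 0.86).

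Replicate 3 stood apart from replicates 1 and 2 for some of these genes and not for others, a pattern seen in the values and given with no test. Replicate 3 divided by the mean of replicates 1 and 2 was 0.0601 in WT and 0.135 in cKO for *Gng13*, and 0.192 and 0.22 for *Prkca*. It was 0.411 and 0.318 for *Pcp2* and 0.598 and 0.388 for *Cabp5*. For *Trpm1* it was 1.37 and 1.04, and for *Grm6* 0.945 and 0.862, so these ON bipolar genes were not low there in the same way. It was 0.938 and 0.682 for *Nyx*, 0.926 and 0.49 for *Lhx4* and 0.696 and 0.557 for *Vsx1*. Of 3 other rod bipolar cell genes, chosen after their values were seen, *Bhlhe23* was low in replicate 3 as well, with 20.5, 56.7 and 5.04 TPM in WT and 35.8, 36 and 4.02 TPM in cKO. *Car8* and *Sebox* were not, at 11.3 to 26 and 11.9 to 35.8 TPM. A fit without replicate 3 of either label was chosen after these values were seen. In it, 4 members (*Cabp5*, *Pcp2*, *Lhx4* and *Gng13*) were higher at an unadjusted p under 0.05 beside 10.0% of all genes. Their p ran from 0.008 to 0.0333 by limma, and none passed adjustment. As the choice rested on values of these same genes, that count is no independent support. The same 4 members were higher with the block, beside 13.4% of all genes, and none was higher after scaling, beside 7.62%.

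**Figure D3:**
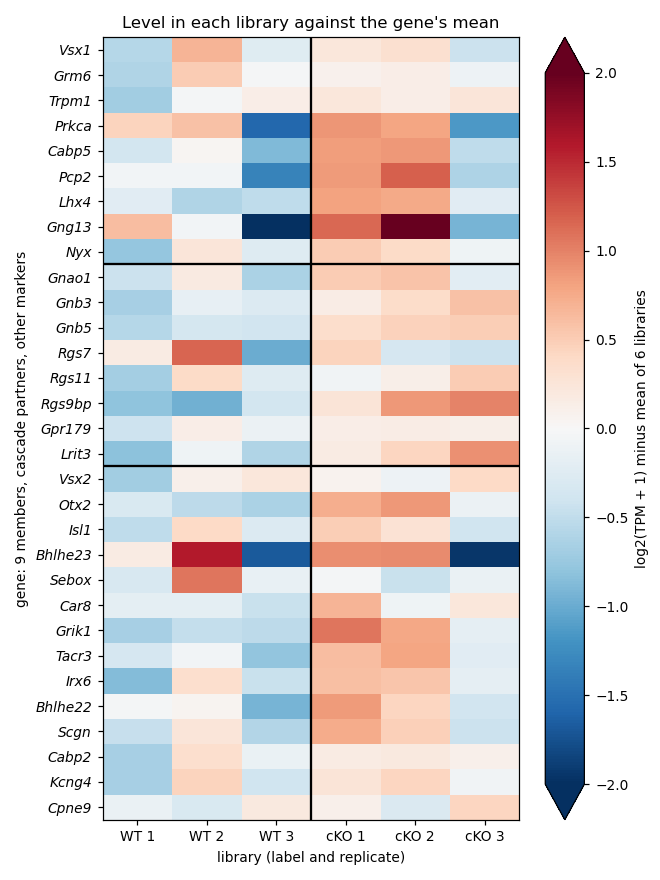
Level of each bipolar cell gene in each library (columns, by label and replicate) as log2(TPM + 1) minus the mean of the 6 libraries for that gene, red above and blue below. *Gng13*, *Prkca* and *Bhlhe23* are blue in replicate 3 of both labels, while *Grm6* and *Trpm1* are pale there.

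Ordered by mean TPM, a per-length scale, the WT libraries ran from *Cabp5* (219), *Pcp2* (217) and *Trpm1* (184) to *Grm6* (78.5) and *Lhx4* (44.9), then *Gng13* (19.1), *Nyx* (15.2), *Prkca* (12.9) and *Vsx1* (5.31). Neighbours overlapped in range except for *Trpm1* with *Grm6* and *Lhx4* with *Gng13*. In the cKO libraries *Pcp2* (447) and *Cabp5* (403) stood in the other order, as did *Lhx4* (87.8) and *Grm6* (79.9), and the only neighbours apart were *Trpm1* (236) and *Lhx4*. Among all genes tested, those whose log2 levels followed the mean standardized profile of the 9 members most closely over the 6 libraries were *Npas2* (r = 0.997), *Prss33* (0.996), *Lsm6* (0.996), *Gnao1* (0.993) and *Rbx1* (0.992), Pearson correlations given as a description. They were picked as the highest of all genes tested over only 6 libraries, with no test. *Npas2* and *Prss33* were low, at 0.596 to 2.54 and 0.519 to 2.16 TPM, while *Lsm6* held 15.2 to 31.5 TPM and *Rbx1* 86.3 to 154 TPM. *Gnao1*, the alpha subunit of Go, held 128, 196 and 111 TPM in WT and 246, 258 and 149 TPM in cKO.

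The partners of the mGluR6 cascade, 8 genes for the G protein, its regulators and the scaffolds around them, did not pass the adjusted test either. Of the 8, 7 had a difference above 0 (beside 61.1% of all genes) and *Rgs7* one of -0.22, with a median of 0.66 (0.49 after scaling). At an unadjusted p under 0.05, 4 were higher (beside the 11.9% of all genes), and the same number had all cKO values above WT (beside 18.7%). *Gnb3*, the beta subunit shared with cones, had the highest level, with 951, 1339.9 and 1242 TPM in WT and 1658, 1942 and 2262 TPM in cKO (log2 difference 0.73, adjusted p = 0.192 by limma). The largest difference was that of *Rgs9bp*, the anchor of RGS9 in photoreceptors, at 1.42 (11.5 to 17.8 TPM in WT, 28.2 to 47.6 TPM in cKO, adjusted p = 0.124 by limma). *Lrit3*, which photoreceptors express, followed at 1.00 (adjusted p = 0.193 by limma), and *Gnb5*, the partner of RGS proteins in neurons, at 0.87 (adjusted p = 0.124 by limma). With the block, *Gnao1* joined these 4 (adjusted p = 0.204 by limma).

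Of 16 other bipolar cell markers, 14 were tested, and 12 had a difference above 0, where 61.1% of all genes did. The median was 0.47 (0.30 after scaling), and 2 were higher at an unadjusted p under 0.05, *Otx2* and *Grik1*, which is near the 11.9% of all genes. *Otx2*, a transcription factor of photoreceptors and bipolar cells, had a log2 difference of 0.98 (adjusted p = 0.173 by limma). *Grik1*, a kainate receptor subunit of OFF bipolar cells, had the largest difference of the list, 1.11, with 83.1 to 94.5 TPM in WT and 116 to 277 TPM in cKO (adjusted p = 0.169 by limma). The most abundant was *Scgn*, a calcium-binding protein gene of cone bipolar cells, at 291, 473 and 267 TPM in WT and 668, 557 and 298 TPM in cKO, which overlapped. *Bhlhe23* and *Sebox* were below 0.

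Markers of other cell types differed between the labels at the unadjusted threshold, and the counts that follow are at that threshold, where 11.9% of all genes were higher and 6.45% lower. Summed over 13 rod genes the level was 14158 to 19555 TPM in WT and 29157 to 53502 TPM in cKO, and all 13 were higher at an unadjusted p under 0.05, with *Pde6b* the most different (1.70). The 8 cone genes summed to 2017 to 2523 and 3545 to 6166 TPM (7 of 8 higher, *Opn1sw* most abundant, *Gngt2* most different at 2.04), and the 9 amacrine genes to 487 to 681 and 939.7 to 1762 TPM (3 of 8 tested higher, with *Slc6a9* both most abundant and most different at 1.99). T cell markers summed to 623 to 1751 TPM in WT and 151 to 372 TPM in cKO (7 of 8 lower, *Trac* most abundant, *Cd3e* at -2.41), and myeloid markers to 1839 to 3029 and 758 to 1045 TPM (4 of 8 lower, *Lyz2* at -1.80). The 7 Müller glia markers overlapped at 6053 to 12623 and 5769 to 14054 TPM (1 lower, *Vim* at -0.86, with *Dkk3* most abundant). The 12 RGC markers summed to 85 to 121 TPM in WT and 131 to 172 TPM in cKO (2 of 9 tested higher), with *Thy1* the largest part of the sum. Of the 9 tested, 6 differed above 0 and 3 below, with a median of 0.03 (-0.03 after scaling), so the list was not raised as a group. *Thy1*, the sorted antigen, did not overlap, at 51.9 to 88.5 TPM in WT and 94.4 to 129 TPM in cKO (adjusted p = 0.223 by limma). No marker in these lists passed adjustment.

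Against these, the 9 bipolar genes summed to 781, 979.9 and 629 TPM in WT and 1548, 1737 and 783 TPM in cKO. As a share of the rod sum they came to 4.75%, 6.92% and 3.22% in WT and 5.31%, 3.37% and 1.46% in cKO. The ranges of this share overlapped between the labels. As a share of the cone sum they came to 38.7%, 44.9% and 24.9% in WT and 43.7%, 36.2% and 12.7% in cKO, and cKO replicate 3 was again the lowest. As a share of the amacrine sum they came to 115%, 166% and 129% in WT and 87.9%, 115% and 83.3% in cKO. As a share of the Müller glia sum they came to 12.9%, 8.57% and 4.98% in WT and 26.8%, 29.8% and 5.57% in cKO, so cKO replicates 1 and 2 lay above every WT library and cKO replicate 3 did not. As a share of the cascade partner sum they came to 55.7%, 47.8% and 36.1% in WT and 62.9%, 61.7% and 25.1% in cKO, and cKO replicate 3 was the lowest. The part of these other cell types in the values of the bipolar genes was not tested.

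**Figure D4:**
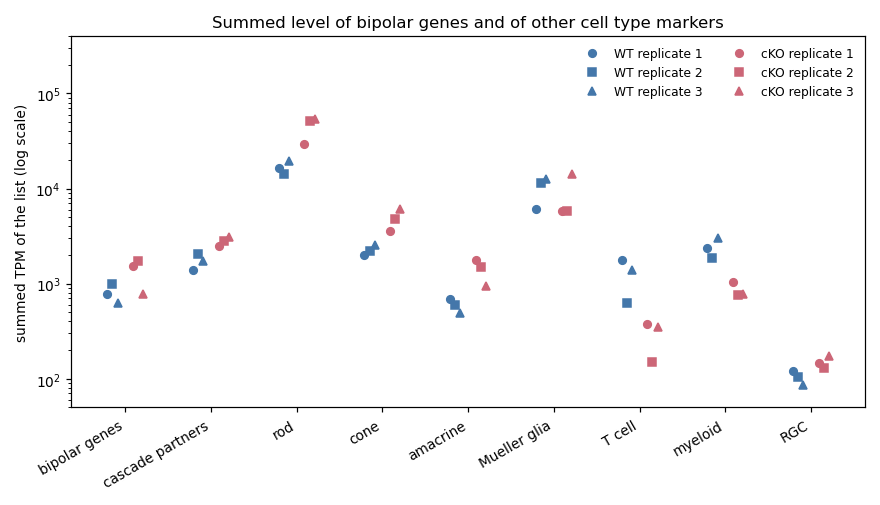
Summed TPM of the 9 bipolar genes, their cascade partners and the markers of other cell types in each library (log axis, blue for WT, red for cKO, marker shape for the replicate). Rod, cone, amacrine, cascade partner and RGC sums of cKO lie above those of WT, and T cell and myeloid sums lie below. The largest part of the RGC sum is *Thy1*, the sorted antigen, and the median log2 difference of the RGC markers tested was 0.03. The bipolar gene sums overlap, with cKO replicate 3 at 783 TPM among the WT values, and the Müller glia sums overlap too.

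In WT, ATAC-seq gave few peaks at the ends of these genes. A peak within 1000 bp of a gene end was present for 3 of 9 members in WT replicate 1 (beside 69.5% of 13606 protein-coding genes tested), 4 in WT replicate 2 (beside 62.2%), 5 in cKO replicate 1 (beside 14.3%) and 1 in cKO replicate 2 (beside 14.3%). The cKO replicate 1 peaks at *Vsx1* and *Grm6* lay past the 3′ end, and those at *Cabp5* and *Lhx4* lay 13023 and 10408 bp from the RefSeq start. Within 1000 bp of RefSeq starts, a count chosen after seeing the data, 4, 3, 1 and 1 members had a peak in these libraries. The share over all genes was not computed for that count. Both WT libraries had a peak for *Prkca* and *Nyx* alone, 2 of 9, where 55.4% of protein-coding genes had one (62.5% of those with a mean TPM of at least 10). *Pcp2* and *Gng13*, the former among the most abundant members, had no peak within 1000 bp in any library, and *Cabp5* had one in cKO replicate 1 only. The share of bipolar cells among the sorted cells was not measured.

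A merged region, whose values are the authors' mean normalized reads per group on a log2 scale with no replicate spread, lay within 1000 bp of an end for 3 of 9 members, beside 55.2% of protein-coding genes (62.4% at a mean TPM of at least 10). At *Nyx* the region chrX:13461428-13462104 began 338 bp after the start and had 4.63 in WT and 1.59 in cKO, a difference of -3.04. At *Prkca* the region chr11:108343369-108344300, which spans the start and holds the sequence printed above, had 4.62 and 3.27, a difference of -1.35. Both had a peak in each WT library and in no cKO library.

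At *Vsx1* the region chr2:150679142-150679721 lay 981 bp past the 3′ end and had 1.96 in WT and 3.29 in cKO, a difference of 1.33, with a peak in each cKO library and no WT library. Off the log2 scale its WT and cKO means were low, at 3.89 and 9.78 normalized reads. Those at *Nyx* were 24.8 and 3.01, and those at *Prkca* 24.6 and 9.65. A difference of -1 or lower was thus held by 2 of 3 regions, beside 59.8% of all regions and 93.4% of those that both WT libraries had a peak in, and one of -2 or lower by *Nyx* alone, beside 40.7% and 65.9%. A difference of 1 or higher was held by 1 of 3, beside 8.73% of all regions. Among regions with peaks in both cKO and neither WT library, 79.8% had a difference of 1 or higher. The median over all 16600 regions was -1.57, so the *Nyx* value lay below that median and the *Prkca* value above it. The mean TPM of both genes was higher in cKO, without passing the test.

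Further from the ends, *Pcp2* had a region 1613 bp past its 3′ end at chr8:3621280-3621756, with 5.25 in WT and 1.6 in cKO, that also lies within 1000 bp of *Xab2* and *Pet100*. Inside the *Trpm1* gene 2 regions differed by -0.57 and -0.03, and inside *Prkca* 2 others by 1.47 and 0.51. All of these rested on low means, at most 10.2 normalized reads in a group. *Grm6*, *Cabp5*, *Lhx4* and *Gng13* had no region in the gene or within 1000 bp. In single libraries, *Grm6* had a WT replicate 2 peak (chr11:50850737-50851212) 52 bp from its RefSeq start, and *Lhx4* a WT replicate 1 peak (chr1:155741418-155741773) 254 bp from its RefSeq start, which lies well inside the annotated gene. *Trpm1* had a WT replicate 1 peak 963 bp and a cKO replicate 1 peak 432 bp from its first RefSeq start, and a cKO replicate 2 peak 302 bp from its second.

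**Figure D5:**
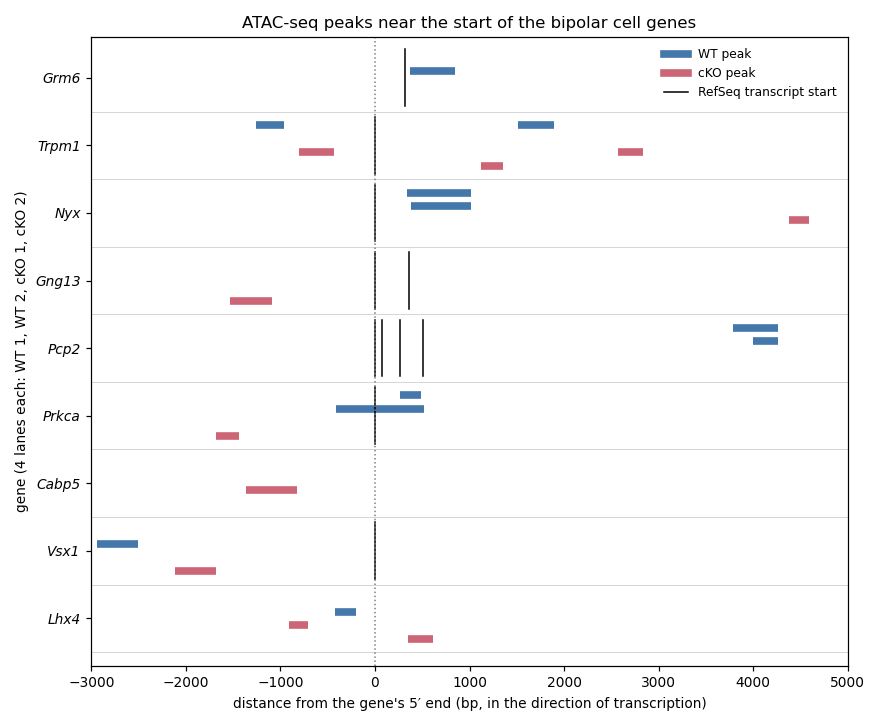
ATAC-seq peaks (bars, blue WT, red cKO) in 4 lanes per gene for the 2 WT and 2 cKO libraries, by distance in bp from the 5′ end of the gene in the direction of transcription (x axis), with RefSeq starts as black lines. Only *Nyx* and *Prkca* have peaks within 1000 bp of the start in both WT libraries. The RefSeq starts of *Cabp5* and *Lhx4* and the second start of *Trpm1* lie beyond the right edge.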

How the data were processed

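Retinal cells sorted on Thy1.2 were profiled by RNA-seq (3 WT, 3 cKO) and ATAC-seq (2 WT, 2 cKO), grouped by the labels. The authors quantified RNA with Salmon 1.0.0 and deposited TPM per gene. Because TPM is no count, the DESeq2 test of the study was not run, and depth is unknown, so no counting interval can be given. ATAC-seq was aligned with Bowtie2 2.3.5.1, and MACS2 2.2.5 is named in the submitters' processing notes. The authors deposited peak lists per library and, per merged region, the log2 of mean normalized reads in each group, printed here as the authors' means. Columns of their own comparisons (fold changes, p-values, FDR) were not used.

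Genes at 1 TPM or more in 3 or more libraries were tested on log2(TPM + 1) with limma 3.58.1 (R 4.3.3, linear model, empirical Bayes with trend, two-sided) and Benjamini-Hochberg adjustment over all 17555 genes at 0.05. Fold changes on this scale understate low genes. Single members also had an exact two-sided permutation test. Each library was a pool of several retinas, and whether the pools came from separate animals is not stated in the labels. The p-values therefore measure only the spread between these libraries. Same-numbered libraries correlated at 0.334, 0.101 and 0.425 in their deviations from the group means (all above 0.1). WT replicate 1 with cKO replicate 2 reached 0.193, above the 0.101 of WT replicate 2 with cKO replicate 2. The other pairs of unlike number were negative. The pairing comes from the data and not from a label, so blocked p-values rest on an assumed pairing. The block is printed where it changes a count. Alternatives were a pseudocount of 0.1, no filter, median-of-ratios scaling, the block, no trend and leaving out each library. The fit was tested on simulated data.

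Regions and peaks were matched to gene ends of RefSeq on GRCm38.p6 within 1000 bp, with positions counted from 1. Promoter sequences are RefSeq's. Other steps used Python 3.11.15, pandas 2.3.3, numpy 2.4.6, scipy 1.17.1 and matplotlib 3.10.9. Named beside the members were the most abundant and the most different gene of each list (for rods the former is not reported here), the genes that came under an unadjusted p of 0.05 among cascade partners and bipolar markers, and the 5 genes most like the members. Members and lists were chosen with earlier results of these data known.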

Additional observations from a re-analysis of the deposited data

How the results depend on the processing

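No adjusted call was made for a member under any alternative run, and the lowest adjusted p of a member was 0.0979 (*Pcp2* with the replicate block). The number of bipolar genes higher at an unadjusted p under 0.05, 1 as reported, was 0 after scaling, 4 with the replicate block, 4 without replicate 3 of both labels (chosen after seeing the data), and 0 to 3 when each library was left out: 0 without WT replicate 3, cKO replicate 1 or cKO replicate 2, and 3 without cKO replicate 3. Cascade partners numbered 4, 2 without replicate 3 of both labels, and 2 to 5 with each library left out (2 without WT replicate 1). Other markers numbered 2, 4 with no filter, and 1 to 4 with each library left out (4 without WT replicate 2 or cKO replicate 3, 1 without cKO replicate 1 or 2). The block moved no other count of these lists by over 1.5 times. The median of the 9 genes was 0.53 and ran from 0.41 to 1.02 with each library left out (1.02 without cKO replicate 3).

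The difference of *Vsx1* turned to -0.05 and that of *Grm6* to -0.08 after scaling. With each library left out, *Vsx1* ran from -0.18 to 0.44, *Grm6* from -0.19 to 0.36, *Prkca* from -0.34 to 1.02, *Gng13* from 0.56 to 2.58, *Pcp2* from 0.54 to 1.51, *Cabp5* from 0.56 to 1.25, *Nyx* from 0.28 to 0.78, *Trpm1* from 0.16 to 0.56 and *Lhx4* from 0.71 to 1.23. ATAC-seq regions numbered 3, or 7 with the gene body included, and 1 in place of 2 had a difference of -2 or lower. Within 3000 bp, 7 members had a peak in WT replicate 2 and 5 in cKO replicate 2, and by RefSeq starts alone (chosen after seeing the data) 1 had one in cKO replicate 1. The cause of these shifts was not tested, apart from the wider window and fewer libraries themselves. No paired analysis was possible because, for ATAC-seq, the regions carry means of a group.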

Other observations

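*Prdm8* and *Neto1*, the bipolar cell markers that did not pass the filter on low values, were not tested. The 4 horizontal cell markers summed to 1.27 to 3.89 TPM in WT and 2.60 to 11.6 TPM in cKO. *Calb1*, a calcium-binding protein gene and the only horizontal cell marker tested, had a log2 difference of 1.06 (adjusted p = 0.332 by limma), with overlapping groups. Of the 7 pigment epithelium and melanocyte markers, *Dct*, an enzyme of melanin synthesis, was the most abundant, with a mean of 0.95 TPM over the 6 libraries.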
